A study of Homo sapiens with 2 samples.

Results

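The GADD45, sestrin and BTG/TOB genes are 10 stress-induced growth-arrest genes of 3 families: GADD45A, GADD45B and GADD45G, the sestrins SESN1, SESN2 and SESN3, and BTG1, BTG2, BTG3 and TOB1. They were chosen by name, by matching the Entrez gene IDs of the deposited table to these symbols. The rule itself uses no measured value, but the genes were chosen with earlier results of these data known. All 10 were among the 23033 gene IDs with a value. Of them, 8 had at least 1 FPKM in both the control and the FZR1 ko library and entered the comparison, whereas GADD45G and SESN3 were at or near 0 in both. Of these 8 genes, 7 had a lower FPKM in FZR1 ko than in control, as did 50.3% of all 13554 genes compared. BTG2, BTG3, GADD45A and SESN2 were at least 2-fold lower, against 6.72% of all genes compared. SESN1 was the only one of the 8 with a higher value in FZR1 ko, and none was at least 2-fold higher, against 6.78%.

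The 3 families act at different points of growth arrest. GADD45 proteins are small nuclear proteins that bind PCNA and the CDK1-cyclin B1 kinase and activate the kinase MAP3K4 upstream of p38 and JNK. Sestrins hold back mTORC1, the kinase complex that drives cell growth, by binding the GATOR2 complex and acting with AMPK, and they also limit oxidative stress. BTG and TOB proteins share a BTG domain through which they bind the CNOT7 and CNOT8 deadenylases and speed the removal of poly(A) tails from mRNA. GADD45A, SESN1, SESN2 and BTG2 are textbook targets of p53, and SESN2 and GADD45A are also induced through ATF4.

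The comparison is between control and FZR1 ko breast cancer cells, both under cisplatin, in a study of cell death. Cisplatin is a platinum drug that crosslinks DNA. FZR1 encodes CDH1, an activator of the anaphase-promoting complex, a name it shares with the unrelated gene of E-cadherin. The samples compared are control cells, with the genotype label WT, and FZR1 ko cells, made with CRISPR/Cas9 and screened from single cells, so that the ko line is a clone. Both carry the label of T-47D, a line from a luminal breast tumour, and both were given cisplatin at 2 µg/ml, so cells without the drug were not compared. Each condition has 1 library, so no difference below has a replicate check and no p-value is given. Levels are FPKM, in which the fragments of a gene are divided by its transcript length and by the size of the library, so they can be compared between genes, but the number of reads behind a value is unknown. Differences are the log2 of FPKM + 1 in FZR1 ko over FPKM + 1 in control, called log2 ratio here. They were computed for the 13554 genes that reached 1 FPKM in either library, whose median log2 ratio was -0.0048. A gene is called at least 2-fold lower or higher where its log2 ratio is at most -1 or at least 1, so the added 1 FPKM counts, and a gene of low FPKM can differ 2-fold in plain FPKM without being called. The RNA is from bulk cultures, so fewer cells that express a gene and less RNA of it per cell cannot be told apart.

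FZR1 itself had 12.3 FPKM in control versus 10.1 FPKM in FZR1 ko, which does not check the labels because small deletions can leave the mRNA in place. The markers go against the T-47D label in part, since 6 of 12 luminal breast genes had less than 1 FPKM in both libraries, ESR1, PGR, GATA3 and CDH1 (E-cadherin) among them. The sum over the 12 luminal genes was 1495 FPKM in control versus 1836 FPKM in FZR1 ko, most of it KRT8 and KRT18. The 7 mesenchymal and basal genes summed to 327 and 321 FPKM, most of it VIM, and 3 of them were below 1 FPKM in both libraries. Among 6 blood and endothelial genes, 5 were below 1 FPKM in both libraries, with CD3E and HBB at 0, and CD68 had 46.1 and 63.8 FPKM. EPCAM, at 3.90 FPKM in control versus 11.5 FPKM in FZR1 ko, and CDH2, at 2.97 and 15.3 FPKM, also differed between the libraries. The part of these marker differences in the results below was not tested.

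Of the 8 genes compared, 7 were lower, as were 50.3% of all genes compared. The 250 bases before the transcription starts are shown for genes with an entry in the RefSeq promoter table of GRCh38.p14. The study names hg38, the same assembly, without a patch release. Of the 10 genes, 9 had an entry, with 12 starts in all, and GADD45A had none. Each line reads 5′ to 3′ on the strand of the gene and ends 1 base before the start. BTG2, BTG3 and SESN2 are shown as genes at least 2-fold lower in FZR1 ko, BTG1 and GADD45B as genes lower by less, and the most downstream start of SESN1 as the gene that was not lower. Capitals mark 4 searched motifs on either strand: the CCAAT box (CCAAT, read as ATTGG on the other strand), the TATA box (TATAAA), the CRE core (TGACG or CGTCA) and the p53 decamer, the unit of which a p53 response element holds a pair.
BTG2, chr1:203305269-203305518, plus strand: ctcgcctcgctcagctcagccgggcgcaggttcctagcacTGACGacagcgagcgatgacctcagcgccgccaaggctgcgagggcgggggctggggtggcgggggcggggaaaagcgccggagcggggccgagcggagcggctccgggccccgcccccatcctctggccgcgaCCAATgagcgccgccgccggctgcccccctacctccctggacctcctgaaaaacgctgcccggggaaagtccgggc
BTG3, chr21:17612902-17613151, minus strand: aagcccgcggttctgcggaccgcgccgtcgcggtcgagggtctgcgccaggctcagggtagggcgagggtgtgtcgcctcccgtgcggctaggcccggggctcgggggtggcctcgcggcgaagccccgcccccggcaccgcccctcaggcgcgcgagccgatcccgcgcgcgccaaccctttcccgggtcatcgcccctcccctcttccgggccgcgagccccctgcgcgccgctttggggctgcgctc
SESN2, chr1:28259268-28259517, plus strand: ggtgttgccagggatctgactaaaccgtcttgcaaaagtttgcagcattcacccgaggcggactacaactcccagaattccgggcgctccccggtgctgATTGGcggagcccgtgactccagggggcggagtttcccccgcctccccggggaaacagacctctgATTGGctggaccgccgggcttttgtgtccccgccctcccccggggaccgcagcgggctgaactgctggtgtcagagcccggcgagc
BTG1, chr12:92145847-92146096, minus strand: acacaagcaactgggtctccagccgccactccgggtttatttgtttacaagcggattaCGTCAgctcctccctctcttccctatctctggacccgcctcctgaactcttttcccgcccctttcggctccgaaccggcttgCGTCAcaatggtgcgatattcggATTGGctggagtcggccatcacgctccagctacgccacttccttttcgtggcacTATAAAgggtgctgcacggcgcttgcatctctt
GADD45B, chr19:2475877-2476126, plus strand: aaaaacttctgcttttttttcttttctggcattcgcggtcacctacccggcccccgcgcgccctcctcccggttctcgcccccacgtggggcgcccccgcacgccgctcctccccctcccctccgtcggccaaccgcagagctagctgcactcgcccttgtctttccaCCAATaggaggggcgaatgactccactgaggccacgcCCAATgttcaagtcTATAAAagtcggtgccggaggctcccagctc
SESN1, the most downstream start, chr6:109008989-109009238, minus strand: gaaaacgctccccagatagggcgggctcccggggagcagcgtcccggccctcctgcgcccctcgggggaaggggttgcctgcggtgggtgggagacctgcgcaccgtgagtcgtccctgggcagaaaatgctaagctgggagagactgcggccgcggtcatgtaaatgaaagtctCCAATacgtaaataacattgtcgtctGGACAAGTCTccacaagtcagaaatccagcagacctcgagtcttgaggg

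The CCAAT box was the motif most often held by these windows. It was found in 8 of the 12 windows, which belong to 7 genes, against 32.0% of the 35114 windows in the table. BTG2 holds 1, with its first base 76 bases before the start, BTG1 has 1 at 87 bases, and SESN2 (86 and 151 bases) and GADD45B (45 and 82 bases) hold 2 each. The other genes with a box were TOB1, SESN1, which was not lower, and GADD45G, which was at 0 FPKM in both libraries. The box was thus not confined to the genes lower in FZR1 ko. The TATA box stood in BTG1, from 33 to 28 bases before the start, and in GADD45B, from 31 to 26 bases, and was present in 10.7% of all windows. CRE cores lay in 1 window each of BTG1, BTG2, SESN1 and TOB1, against 21.2% of all windows. The p53 decamer was found once, in the SESN1 window shown, from 49 to 40 bases before the start, against 5.57% of all windows. A full CRE (TGACGTCA, 1.65% of all windows), an AP-1 site (TGANTCA, 6.57%) and the SRF CArG box (1.16%) were in none of the 12 windows. One kappaB site lay in SESN2 (5.21% of all windows) and 1 CARE (TGATGNAA, 3.14%) in GADD45G. BTG3 held none of these motifs in its window, which was instead the richest in CpG of the 12, with 39 CpG against a median of 11 over all windows. The full CRE contains the CRE core, and the other motifs were searched without regard to overlap. These matches describe letters in a short window and say nothing on which factor was bound.

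GADD45A was the main GADD45 gene in these cells and was at least 2-fold lower in FZR1 ko. GADD45A (Entrez gene 1647, chromosome 1 from 67685201 to 67688334, plus strand, 4 exons) had 114 FPKM in control versus 47.9 FPKM in FZR1 ko. The control value was 2.38 times the FZR1 ko value, with a log2 ratio of -1.24, and 3.64% of the genes compared had a lower ratio. GADD45B (Entrez gene 4616, chromosome 19 from 2476127 to 2478257, plus strand, 4 exons), the member best known as an NF-kB and TGF-beta target, had 24.3 FPKM in control versus 15.9 FPKM in FZR1 ko. Its log2 ratio was -0.58, so it was lower but did not reach a 2-fold difference. GADD45G (Entrez gene 10912, chromosome 9 from 89605012 to 89606555, plus strand, 4 exons) was listed at 0 in both libraries. GADD45A therefore made up 82.4% of the summed GADD45 FPKM in control and 75.1% in FZR1 ko. The sum over the family was 138 FPKM in control versus 63.8 FPKM in FZR1 ko.

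The sestrins diverged, with SESN2 lower in FZR1 ko and SESN1 nearly level. SESN2 (Entrez gene 83667, chromosome 1 from 28259518 to 28282491, plus strand, 10 exons), the leucine sensor of the mTORC1 pathway, had 17.5 FPKM in control versus 7.68 FPKM in FZR1 ko. Its log2 ratio of -1.09 lay just past the 2-fold threshold, and was -0.83 with a pseudocount of 5 FPKM. SESN1 (Entrez gene 27244, chromosome 6 from 108984309 to 109094846, minus strand, 10 exons) had 6.06 FPKM in control versus 6.90 FPKM in FZR1 ko, which gives a log2 ratio of 0.16. In control the level of SESN2 was thus well above that of SESN1, while in FZR1 ko the 2 levels were close. With the trend of log2 ratios along genomic span removed, SESN2 was at -0.98, short of the threshold, and SESN1 at -0.26. SESN2 held 74.1% of the summed sestrin FPKM in control and 52.6% in FZR1 ko. SESN3 (Entrez gene 143686, chromosome 11 from 95165513 to 95232475, minus strand, 10 exons), a FOXO target in other tissues, had 0.04 and 0.03 FPKM. These values differ by the last decimal of the table, so no difference was detectable for SESN3.

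All 4 BTG/TOB genes were lower in FZR1 ko, as were 50.3% of all genes compared, and BTG2 differed most of the 10 genes. BTG2 (Entrez gene 7832, chromosome 1 from 203305519 to 203309602, plus strand, 2 exons), also an immediate early gene, had 75.7 FPKM in control versus 17.2 FPKM in FZR1 ko. The control value was 4.41 times the FZR1 ko value. The log2 ratio of -2.08 placed it at rank 70 from the lowest of 13554 genes, and it alone of the 10 genes was at least 4-fold lower, as were 0.657% of all genes compared. It fell short of 4-fold with a pseudocount of 5 FPKM or with the trend of log2 ratios along genomic span removed, at -1.86 in both cases. BTG3 (Entrez gene 10950, chromosome 21 from 17593653 to 17612901, minus strand, 5 exons), which in other cells binds E2F1, had 71.3 FPKM in control versus 23.6 FPKM in FZR1 ko. Its log2 ratio was -1.55, and 1.80% of the genes compared had a lower one.

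BTG1 and TOB1 stood just short of the 2-fold threshold. BTG1 (Entrez gene 694, chromosome 12 from 92140278 to 92145846, minus strand, 2 exons), the closest relative of BTG2, had 33.9 FPKM in control versus 17.0 FPKM in FZR1 ko, which gives a log2 ratio of -0.96. TOB1 (Entrez gene 10140, chromosome 17 from 50862223 to 50867978, minus strand, 2 exons), a longer member of the family that also binds poly(A)-binding protein, had 135 FPKM in control versus 69.6 FPKM in FZR1 ko, which gives a log2 ratio of -0.94. TOB1 had the highest level of the 10 genes in both libraries. BTG2 and BTG3 came next after GADD45A in control, with more than 2 times the level of BTG1, and in FZR1 ko BTG2 was level with BTG1 at 17.2 and 17.0 FPKM. TOB1 held 42.7% of the summed BTG/TOB FPKM in control and 54.6% in FZR1 ko, whereas BTG2 held 24.0% and 13.5%. The family summed to 316 FPKM in control versus 127 FPKM in FZR1 ko. TOB1-AS1, an antisense gene across the start of TOB1, had 0.66 FPKM in control versus 1.78 FPKM in FZR1 ko. BTG2-DT, which lies upstream of BTG2 without overlap, had 0.74 and 0.34 FPKM. Both are far below the levels of TOB1 and BTG2. The sources do not say whether strand was used, and its effect on the values of TOB1 was not tested.

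**Figure D1:**
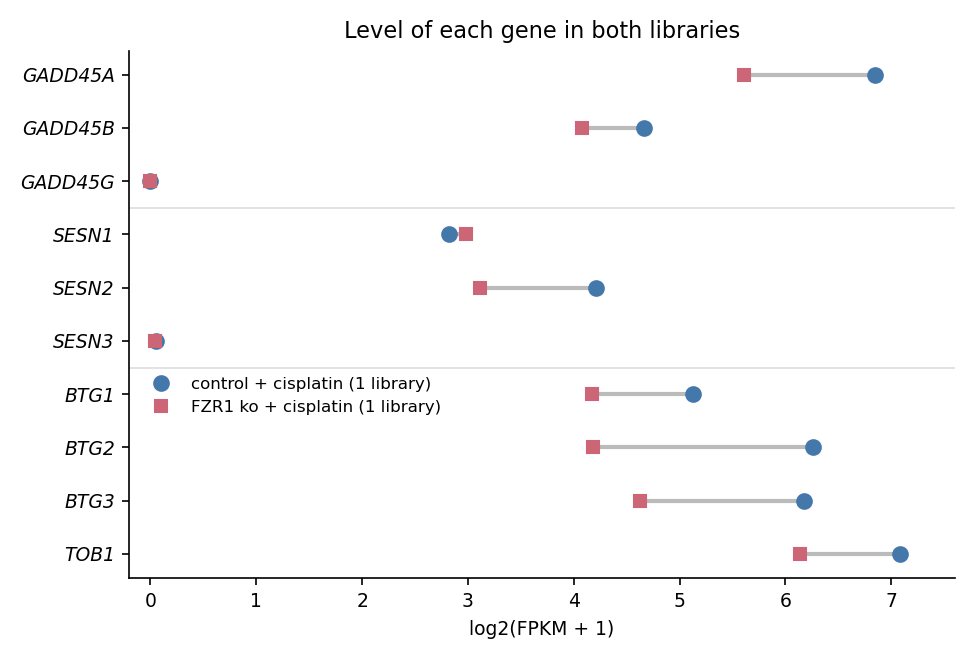
Level of each of the 10 genes as log2(FPKM + 1) on the horizontal axis, with a blue circle for the control library, a red square for the FZR1 ko library and a grey line joining them. Control lies to the right for GADD45A, GADD45B, SESN2 and all 4 BTG/TOB genes, furthest for BTG2 (75.7 and 17.2 FPKM), while SESN1 lies slightly the other way and GADD45G and SESN3 sit at or near 0.

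Over the 8 genes compared the median log2 ratio was -1.02, beside -0.0048 over all 13554 genes. At least 2-fold lower in FZR1 ko were 4 of the 8 genes, against 6.72% of all genes compared, and at least 2-fold higher were 0 of the 8, against 6.78%. All of the 8 genes but SESN1 have at least 10 FPKM on average, and among the 6654 genes of that level 5.68% were at least 2-fold lower. Below 0 were 7 of the 8 log2 ratios, as were 50.3% of all genes compared. The summed level of the 10 genes was 478 FPKM in control versus 206 FPKM in FZR1 ko, so that 43.1% of the control level was found in FZR1 ko. By family, the share of the control level was lowest for BTG/TOB, at 40.3%, followed by GADD45 at 46.1% and the sestrins at 62.0%. With 1 library per condition this order has no error and the families cannot be ranked beyond these libraries.

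**Figure D2:**
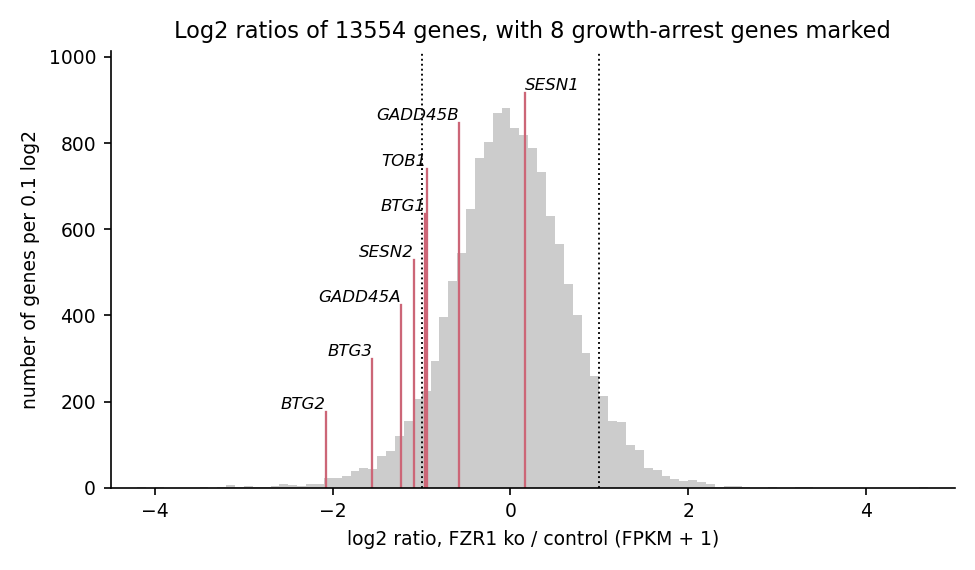
Number of genes (vertical axis, per 0.1 log2) at each log2 ratio of FZR1 ko to control (horizontal axis) for 13554 genes in grey, with dotted lines at the 2-fold thresholds and red lines at the 8 growth-arrest genes compared, whose heights only separate the names. BTG2, BTG3, GADD45A and SESN2 lie past the lower threshold, TOB1 and BTG1 next to it, and SESN1 at 0.16 is the only one above 0.

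The genes that were lower are compact, and the log2 ratio followed the genomic span of genes across the whole table. Except for SESN2 (23.0 kb) and BTG3 (19.2 kb), the genes lower in FZR1 ko span between 2.13 kb (GADD45B) and 5.76 kb (TOB1), while SESN1 spans 111 kb. Over the 11550 protein-coding genes compared, Spearman's rho between span and log2 ratio was 0.45. This is a correlation across genes of the same 2 libraries, and genes are not independent replicates. These genes were split by span into 10 groups of like size. The median log2 ratio was -0.22 in the group of shortest span and 0.73 in the group of longest span. With the median of its own span group subtracted, BTG2 was at -1.86, BTG3 at -1.39 and GADD45A at -1.02, and these 3 remained at least 2-fold lower, as did 4.81% of protein-coding genes. SESN2 then fell short of the threshold, at -0.98. BTG1 and TOB1 came to -0.74 and -0.73, and GADD45B to -0.37. SESN1 changed sign, because genes of its span had a median of 0.42, and stood at -0.26 relative to them. All 8 genes were thus below the median of genes of like span, with a median difference of -0.86. By construction, subtracting a group median leaves about as many genes below 0 as above it. The subtraction was chosen after seeing the data.

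**Figure D3:**
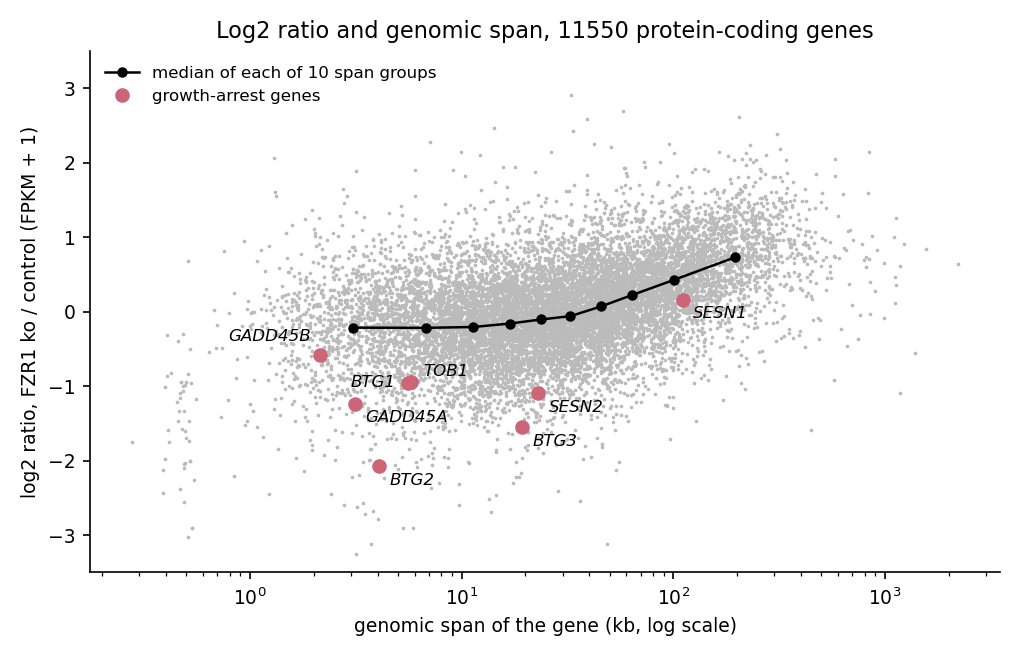
Log2 ratio of FZR1 ko to control (vertical axis) against the genomic span of the gene in kb (horizontal log axis) for 11550 protein-coding genes in grey, with the median of each of 10 span groups in black and the 8 growth-arrest genes compared in red. The black line goes from -0.22 at the shortest to 0.73 at the longest genes, and all 8 red points lie below it, SESN1 by the least. In each span group about as many genes lie below the group median as above it, by construction.

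Genes that work with these families were read from lists in the same way. TOB2, the closest relative of TOB1, was at least 2-fold lower, with 32.8 FPKM in control versus 15.8 FPKM in FZR1 ko (log2 ratio -1.01), while BTG4 was listed at 0 in both libraries. With the span trend removed TOB2 was at -0.80, short of the threshold. Of 17 genes of the CCR4-NOT and PAN2-PAN3 deadenylases and their partners, 0 were at least 2-fold lower and 0 higher, against 6.72% and 6.78% of all genes. The median log2 ratio was 0.29, and 0.0090 with the span trend removed. CNOT7, a deadenylase bound by BTG and TOB proteins, had 37.4 FPKM in control versus 33.9 FPKM in FZR1 ko. Its relative CNOT8 had 47.6 and 28.5 FPKM, a log2 ratio of -0.72.

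Among genes of the GATOR, AMPK and mTORC1 pathway, 24 of 25 were compared, with a median log2 ratio of 0.21 (-0.039 with the span trend removed). Of these, 1 was at least 2-fold lower and 1 higher, against 6.72% and 6.78% of all genes. WDR24, a subunit of the GATOR2 complex to which sestrins bind, was the one lower, with 25.6 FPKM in control versus 9.47 FPKM in FZR1 ko (log2 ratio -1.34). RPTOR, the scaffold subunit of mTORC1, was the one higher, with 2.02 and 7.43 FPKM (log2 ratio 1.48). RPTOR spans 422 kb, and with the median of its span group, 0.73, subtracted it was at 0.75. In plain FPKM, MTOR (2.10 times), PRKAG2 (2.15 times) and DEPDC5 (2.19 times) were also more than 2-fold higher in FZR1 ko, though not with 1 FPKM added. They belong to the same span group as RPTOR, and with its median subtracted their log2 ratios were 0.25, 0.011 and -0.053. Of the 12 redox partners of the sestrins, 0 were at least 2-fold lower and 0 higher, against 6.72% and 6.78% of all genes, and their median was -0.066 (0.082 with the span trend removed).

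Of 18 partners of GADD45 proteins and stress kinases, 2 were at least 2-fold lower, against 6.72% of all genes, and 1 was higher, against 6.78%, with a median log2 ratio of -0.13 (-0.18 with the span trend removed). CDKN1A, the CDK inhibitor p21, had 319 FPKM in control versus 77.2 FPKM in FZR1 ko (log2 ratio -2.03), and MBD4, a thymine glycosylase, had 80.3 and 37.1 FPKM (-1.09, and -0.88 with the span trend removed, short of the threshold). MAP2K6, a p38 kinase kinase, had 3.15 FPKM in control versus 14.6 FPKM in FZR1 ko (1.91, and 1.18 with the span trend removed). MAP3K4, the kinase that GADD45 proteins activate, had 1.27 and 3.29 FPKM, which is 2.59 times in plain FPKM but a log2 ratio of 0.92. With the span trend removed MAP3K4 was at 0.49. PCNA, the replication clamp, had 328 and 212 FPKM (-0.62).

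Among transcription factors known to act on members of these families, 18 of 21 were compared, with a median log2 ratio of 0.15 that turned to -0.11 with the span trend removed. Of these, 2 were at least 2-fold lower, against 6.72% of all genes, and 0 were higher, against 6.78%. EGR1 had 15.4 FPKM in control versus 1.57 FPKM in FZR1 ko (-2.68), and ATF3 had 123 and 29.8 FPKM (-2.01). ATF4 had 159 and 148 FPKM (-0.11, and 0.11 with the span trend removed), and FOXO3 had 3.86 and 6.14 FPKM (0.55, and 0.13 with the trend removed). Protein levels and phosphorylation were not part of these data.

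The list of other growth-arrest genes, which holds CDKN1A and TOB2 as well, was the related list of more than 1 gene with the lowest median. Of its 18 genes compared, 7 were at least 2-fold lower, against 6.72% of all genes, 0 were at least 2-fold higher, against 6.78%, and the median log2 ratio was -0.78. Beside CDKN1A and TOB2 the genes at least 2-fold lower were CDKN2B, a CDK4 and CDK6 inhibitor (55.2 FPKM in control versus 13.3 FPKM in FZR1 ko), the polo-like kinases PLK3 (39.7 and 10.4 FPKM) and PLK2 (115 and 45.2 FPKM), SFN, the 14-3-3 sigma protein (371 and 164 FPKM), and NDRG1 (46.99 and 21.1 FPKM). PPP1R15A, the stress phosphatase subunit also named GADD34, had 70.7 and 36.5 FPKM (-0.94), and DDIT3, also named GADD153, had 19.3 and 12.9 FPKM (-0.55). In the opposite direction DDIT4, an mTORC1 inhibitor, had 74.7 FPKM in control versus 141 FPKM in FZR1 ko (0.91), and GAS6, a receptor tyrosine kinase ligand, had 10.04 and 20.6 FPKM (0.97), which is 2.05 times in plain FPKM. CCNG2, an unconventional cyclin, had 10.9 and 5.26 FPKM (-0.93), with 2.08 times the FZR1 ko value in control. The median span of this list was 6.26 kb, against 40.3 kb for the GATOR, AMPK and mTORC1 list. With the span trend removed their medians were -0.72 and -0.039. Of the growth-arrest list 5 genes were then at least 2-fold lower, against 4.81% of protein-coding genes, with TOB2 and SFN (-0.95) short of the threshold. DDIT4 was the 1 gene at least 2-fold higher, at 1.12, against 3.45%.

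**Figure D4:**
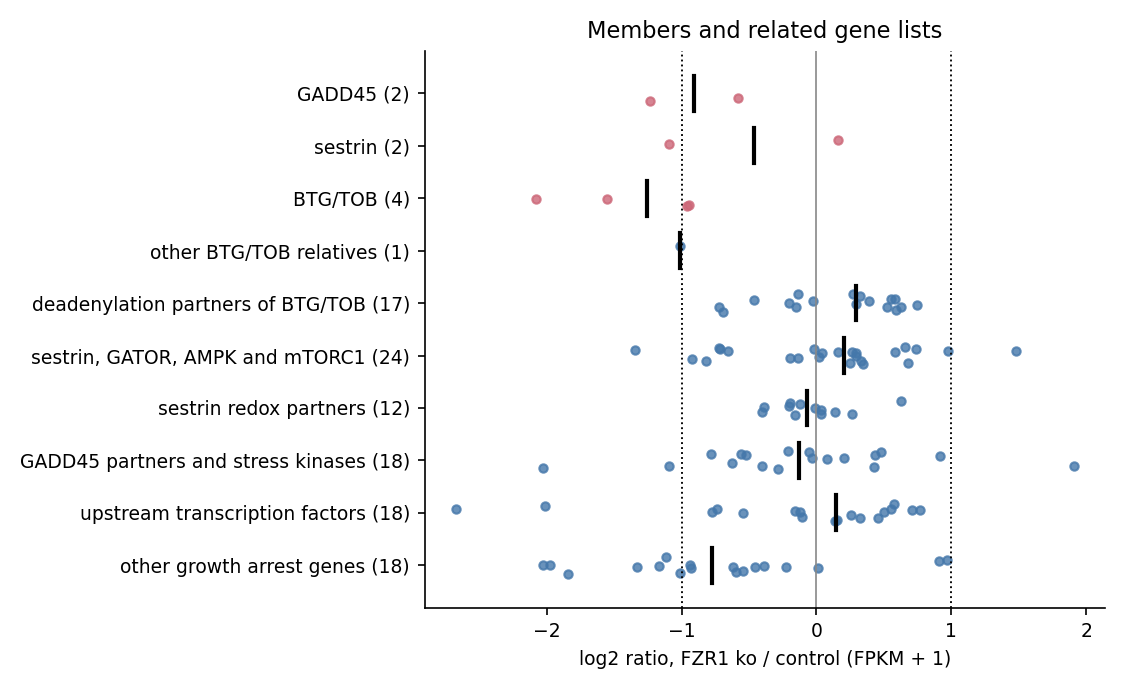
Log2 ratio of FZR1 ko to control (horizontal axis) for each gene compared of the 3 families in red and of the related lists in blue, with black bars at the median of each list, dotted lines at the 2-fold thresholds and the number of genes in brackets. Among the related lists of more than 1 gene, the other growth arrest genes lie lowest (median -0.78), and the deadenylation and mTORC1 lists lie above 0 (0.29 and 0.21), though at 0.0090 and -0.039 with the span trend removed, which is not drawn.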

How the data were processed

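Cisplatin-treated control and FZR1 ko cells were sequenced on a BGISEQ-500, with 1 library per condition. The authors used Bowtie2 and RSEM with an hg38 transcriptome, and deposited FPKM per Entrez gene ID to 2 decimals. The submitters' processing notes also name Trimmomatic 0.36, HISAT2 2.1.0 and Bowtie2 2.2.5, and the annotation version is not given in the sources used here. Of 24663 rows, 1630 hold no value, and 99.5% of the others matched a RefSeq symbol. FPKM holds no read counts, and the depth of the libraries is unknown. Among 244 short RNA genes the commonest ratio of FZR1 ko to control was 0.979, with 46 genes within 0.5% of it, which was not used. Log2 ratios used a pseudocount of 1 FPKM, which understates the difference of low genes, and genes of at least 1 FPKM in at least 1 library. No test was made, and the computation was tested on simulated data. The 10 genes and all lists were chosen with earlier results of these data known. The text names the 10 genes, every gene of the related lists with a log2 ratio of at most -1 or at least 1, and genes tied directly to a family. The value of a gene within this rule is not reported here. DDIT4, GAS6, CCNG2, MTOR, PRKAG2, DEPDC5, TSC1 and the marker genes were named after their values were seen. Exon numbers are those of the canonical GENCODE 44 transcripts, and genomic spans those of RefSeq. The alternatives were other pseudocounts, filters, scalings and thresholds, and the removal of trends with gene length. Python 3.11.15, numpy 2.4.6, pandas 2.3.3 and matplotlib 3.10.9 were used.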

Additional observations from a re-analysis of the deposited data

How the results depend on the processing

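No paired analysis was possible because there is only 1 library of each genotype, and no replicate could be left out. The removal of the span trend and of the spliced length trend was chosen after seeing the data. The number of genes at least 2-fold lower in FZR1 ko, 4 of 8, was 1 at a 4-fold threshold (BTG2), by the construction of a stricter threshold. The median log2 ratio of the 8 genes, -1.02, was -0.87 with a pseudocount of 5 FPKM and -0.86 with the span trend removed. It ranged up to these from -1.09 with the spliced length trend removed, and was -0.95 over all 10 genes without a filter. Genes at least 2-fold higher numbered 0 under every alternative run. Of the 72 values of the 8 genes under 9 alternatives, 69 kept their side of the 2-fold threshold. A change of filter cannot alter the ratio of a gene, and the scalings moved the ratios by little. Most of these values could therefore hardly change side, and the count says little on how firm the calls are. The exceptions were SESN2 at -0.83 with a pseudocount of 5 FPKM and -0.98 with the span trend removed, and BTG1 at -1.08 with the spliced length trend removed. Only SESN1 took the other sign, at -0.26 with the span trend removed and -0.019 with the spliced length trend removed. SESN3 and GADD45G were too low to compare, and the depth behind their values is unknown.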

Other observations

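The relation of the log2 ratio to genomic span runs through the 11550 protein-coding genes, split by span into 10 groups of like size. In the group of shortest span, up to 4879 bases, 15.0% of genes were at least 2-fold lower and 2.34% at least 2-fold higher in FZR1 ko. In the group of longest span, from 131358 bases, 0.346% were at least 2-fold lower and 28.8% at least 2-fold higher. Between them the median log2 ratio was -0.16 in the fourth group, 0.068 in the seventh and 0.42 in the ninth. Among the 6413 protein-coding genes with a mean of at least 10 FPKM, Spearman's rho was 0.36, and within the group of shortest span alone it was 0.088. For the spliced length of the transcript, over 11454 genes, rho was 0.18. These are correlations across genes of the same 2 libraries, given as descriptions.

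Of the genes in the related lists, 24 fell in the 2 groups of longest span, and all 24 had a log2 ratio above 0, as did 85.3% of all protein-coding genes of these groups. MTOR, which spans 156 kb, had 7.29 FPKM in control versus 15.3 FPKM in FZR1 ko (log2 ratio 0.98), and MAP3K4, which spans 126 kb, had a log2 ratio of 0.92. In the eighth group, from 53121 to 79830 bases, 7 of 10 genes were below 0, as were 33.7% of all protein-coding genes of that group, whose median was 0.22. The lowest of the 7 were ATF3 at -2.01, NDRG1 at -1.12 and TSC1, which inhibits mTORC1 through RHEB, at -0.72. In the third group 12 of 12 related genes were below 0, against 66.5% of all. Other groups were less one-sided: 7 of 12 in the first (65.9% of all), 8 of 12 in the second (65.5%) and 8 of 14 in the fourth (61.6%). The fifth had 5 of 7 (57.3%), the sixth 6 of 7 (55.2%) and the seventh 1 of 6 (44.8%). DDIT4, at 2.11 kb, was higher in FZR1 ko although genes of its span had a median of -0.22. The cause of the relation to span was not tested.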
